A study of Mus musculus with 6 samples.

Results

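Clustered CTCF regions are stretches of the genome that carried a CTCF peak in all 6 libraries of the series and that lay at a gap of 20000 bp or less from another such region. They were found by merging the peaks of the 6 lists on chromosomes 1 to 19 wherever they overlapped by 1 bp, keeping the merged regions with a peak in every list, and then keeping those with a close neighbour of the same kind. The lists merged into 90494 regions, of which 4810 were in all 6 lists. Of these, 1528 (31.8%) met the gap rule and are called clustered regions here, and the remaining 3282 are called the other 6-list regions. Presence in the lists and position chose the members, so counts, gaps, spans and region widths are a description and carry no test.

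The libraries came from regulatory T cells of the mouse thymus and profiled CTCF by CUT&RUN, in which an antibody directs a nuclease to the bound protein and the released DNA is sequenced. There were 3 libraries from Cgas knockout cells (Cgas_KO) and 3 from wild-type cells (WT), with 1 deposited peak list each. The stated aim was to profile CTCF binding with and without cGAS, the enzyme that senses DNA in the cytosol. The labels do not give the age, sex, strain or way of deletion, nor whether replicates came from separate animals, so a p-value here reflects how far these libraries differ among themselves, a spread that may be technical. Positions are in mm39, counted from 1. No annotation or sequence of that build was used, so regions are named by position, and neither the cell type nor the loss of Cgas was checked against a gene.

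CTCF is a zinc-finger protein that binds an asymmetric DNA motif and stops the loop-extruding cohesin ring, which leaves chromatin loops anchored at pairs of CTCF sites. Sites often lie near one another, and groups of neighbouring sites are known from the borders of topologically associating domains and from gene families in which a promoter is chosen by looping. In T cells CTCF takes part in rearrangement of the antigen receptor loci and in the control of lineage genes.

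The height of a region in a library was the highest max signal of its peaks there, given over the median max signal of all autosomal peaks of that list, which held 26047 to 30535 peaks. A height of 1 is thus that of an ordinary peak of the list. Max signal moved in whole steps, and 1 step was 0.0714 to 0.0909 of the list median, which sets the precision of a low height. Read depth is unknown. The 2 kinds of 6-list region together held 20.8% to 22.4% of the peaks of a list, and peaks outside them had median heights of 0.857 to 0.929.

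Most clusters were small. Chaining members at gaps of 20000 bp or less gave 626 clusters, of which 458 (73.2%) were pairs and held 916 of the 1528 members. There were 104 clusters of 3 regions, 42 of 4 and 22 of 5 or more, the last holding 132 members and the largest 9. The median span was 30631 bp over all clusters, 27317 bp for pairs, 46210 bp for clusters of 3, 63430 bp for clusters of 4 and 109398 bp for clusters of 5 or more. Together the clusters spanned 24.1 Mb, of which 16.3 Mb lay inside merged regions. The merged regions filled a median of 66.3% of a cluster, so that the intervals between members were usually shorter in sum than the members themselves.

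The 902 gaps inside clusters had a median of 7977 bp and a smallest value of 4 bp. Of them, 105 (11.6%) were under 1 kb, 225 lay between 1 and 5 kb, 196 between 5 and 10 kb and 376 (41.7%) between 10 and 20 kb. At the edge of the rule the gaps ran on without a break. The largest gap inside was 19999 bp and the smallest outside 20077 bp, with 86 gaps between 18 and 20 kb and 58 between 20 and 22 kb. The 132 regions whose nearest neighbour lay at 18 to 20 kb had a median height of 1.76 and a median width of 7201 bp. The 81 regions at 20 to 22 kb, just outside, had a median height of 1.98 and a median width of 7120 bp.

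**Figure D1:**
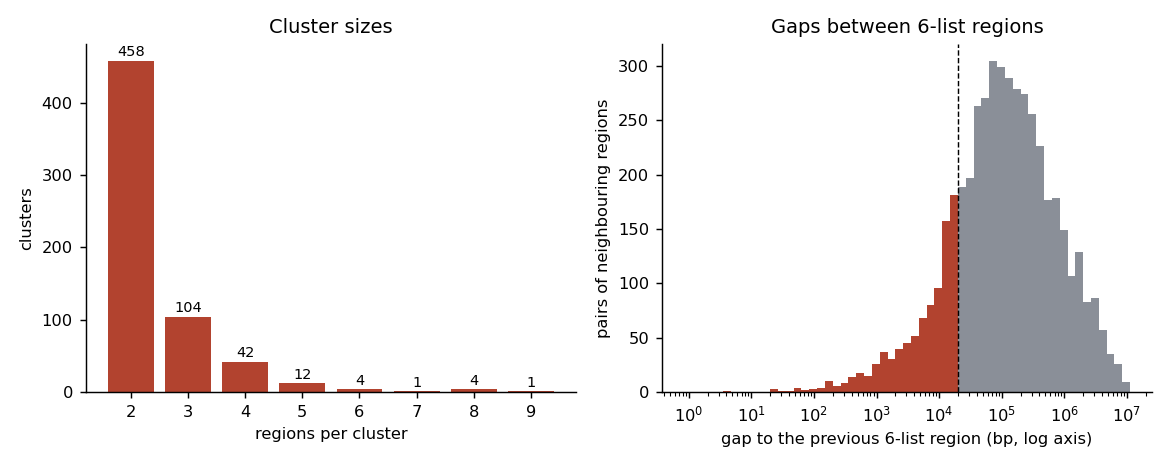
Left, the number of clusters (y axis) by the number of regions in a cluster (x axis). Right, the gaps between neighbouring 6-list regions (x axis, bp, log axis) and how many pairs had them (y axis), with gaps at 20000 bp or less in red and the rule as a dashed line; 458 of 626 clusters were pairs, and the gaps form 1 broad distribution through which the rule passes.

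Clustering was uneven over the chromosomes. Chromosome 4 had 157 of its 364 6-list regions in clusters (43.1%), chromosome 7 had 176 of 417 (42.2%) and chromosome 11 had 184 of 476 (38.7%). These 3 held 33.8% of all members. At the other end, chromosome 13 had 28 of 147 (19%), chromosome 18 had 23 of 117 (19.7%) and chromosome 12 had 34 of 163 (20.9%). Chromosome 11 also carried the most 6-list regions for its length, 40.1 per 10 Mb, against 12.5 on chromosome 13. The order by share was not the order by density, since chromosome 4 had 23.7 regions per 10 Mb, and chromosome 19, with 31.3 per 10 Mb, had 31.3% clustered. No test of the difference between chromosomes was made.

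**Figure D2:**
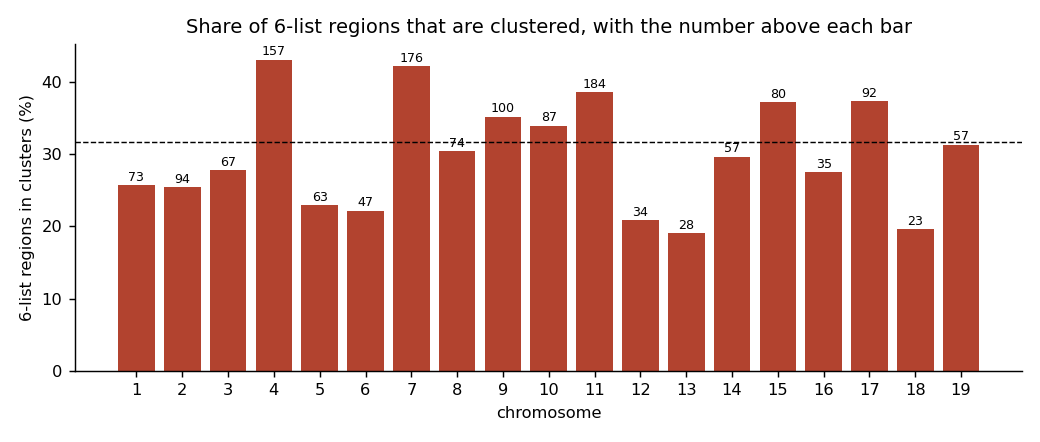
Share of the 6-list regions of each chromosome that were clustered (y axis, percent) for chromosomes 1 to 19 (x axis), with the number of clustered regions above each bar and the share over all chromosomes, 31.8%, as a dashed line. Chromosomes 4, 7 and 11 stand highest, and chromosomes 12, 13 and 18 lowest.

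The 8 clusters with the most regions lay on 4 chromosomes. The largest, chr4:146080319-146370844, held 9 regions over 290526 bp. Clusters of 8 regions were chr4:147411775-147760482, chr17:35378928-35524704, chr14:54679902-54818279 and chr4:152176405-152300521. The list closes with chr4:147165758-147371219, of 7 regions, and with the 6 regions each of chr11:52153938-52289846 and chr14:54850035-54955950, the widest among clusters of that size.

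These clusters were of different kinds. In chr4:146080319-146370844 and chr4:147411775-147760482 the regions were broad, 27401 and 39411 bp on average, and filled 84.9% and 90.4% of the span. Their mean heights were only 1.25 and 1.65. In chr14:54679902-54818279 the regions averaged 7371 bp and filled 42.6% of the span, and 7 of the 8 stood between 1.24 and 1.92, with the first at 3.15. The cluster chr17:35378928-35524704 was the tallest of the 8, at a mean height of 2.56. Its members differed most, from 0.949 at chr17:35435515-35447778 to 6.78 at chr17:35512288-35524704.

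The broad clusters of chromosome 4 belong to a stretch that was picked after these values were seen. It held 51 6-list regions, of which 43 were clustered, in 9 clusters from chr4:145389169-148257256. They made up 27.4% of the clustered regions of chromosome 4. Their median width was 24283 bp, against 8183 bp over all clustered regions. Median heights there were 1.36, 1.43 and 1.45 in the Cgas_KO libraries and 1.43, 1.38 and 1.5 in the WT libraries. These medians of the genotypes overlapped, whereas those over all clustered regions did not.

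Clustered regions were wider than the other 6-list regions. The merged regions had a median width of 8183 bp (interquartile range 5815 to 12170 bp) when clustered and 6982 bp (5099 to 9989 bp) otherwise. A width of 20 kb or more was found in 102 clustered regions (6.68%) and 75 others (2.29%), and a width under 5 kb in 225 (14.7%) and 773 (23.6%). Width enters the rule, since a wider region ends closer to its neighbour, so this is no test. Regions whose nearest neighbour lay under 1 kb away had the largest median width, 9390 bp, and those with none within 200 kb the smallest, 6504 bp.

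Peaks within single lists showed the same direction on a smaller scale. Median peak width in clustered regions was 3419, 3763 and 2798 bp in the Cgas_KO libraries and 3662, 3367 and 3722 bp in the WT libraries. In the other 6-list regions it was 3286, 3514 and 2672 bp in Cgas_KO and 3433, 3104 and 3456 bp in WT. The peaks of clustered regions were wider in all 6 lists, by 127 to 267 bp. Clustered regions also more often held several peaks of 1 list, since 49.4% of them had exactly 1 peak from each list, against 61.5% of the other 6-list regions. The most divided clustered region was built from 73 peaks.

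Height, in contrast, hardly differed between clustered and other 6-list regions. Clustered regions had median heights of 1.71, 1.71 and 1.64 in the Cgas_KO libraries and 2.14, 2.08 and 2.07 in the WT libraries. The other 6-list regions had 1.71, 1.71 and 1.64 in Cgas_KO and 2.14, 2.08 and 2.14 in WT. In 5 of 6 libraries the medians were the same step, and in WT replicate 3 they were 1 step apart. Mean log2 height was lower in clustered regions in 6 of 6 libraries, with differences of -0.050 to -0.0028. Regions at least 5 times the list median made up 4.97% ± 0.907 of clustered regions in Cgas_KO and 12.1% ± 0.587 in WT (SD, n = 3), and 5.51% ± 0.317 of the other 6-list regions in Cgas_KO and 12.4% ± 0.609 in WT (SD, n = 3). By total signal, summed over the peaks of a region, clustered regions were higher by 0.18 on the log2 scale, where the width of the region enters.

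**Figure D3:**
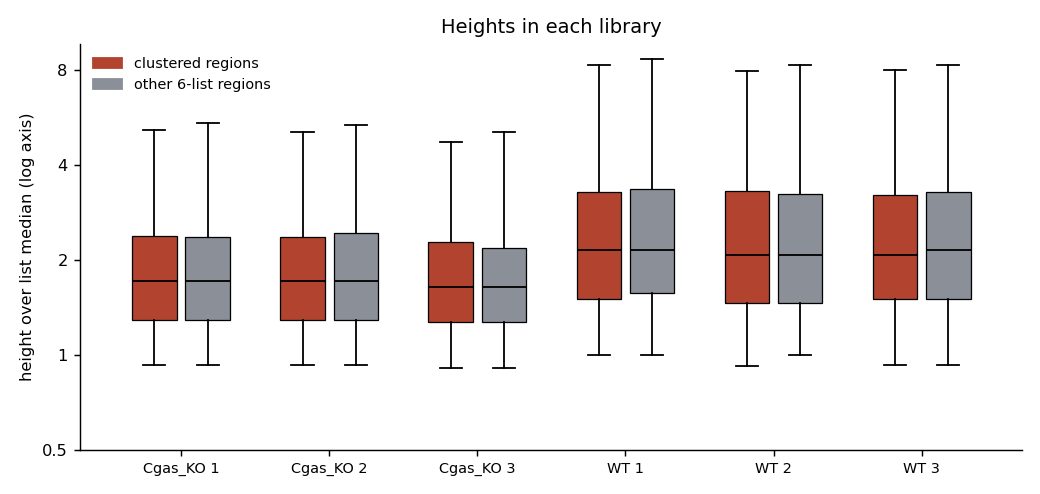
Height over list median (y axis, log axis) of the clustered regions (red) and the other 6-list regions (grey) in each library (x axis, Cgas_KO then WT). Boxes give quartiles and median, whiskers the 5th and 95th percentiles; within each library the pair of boxes nearly coincides, and the medians are 1.64 to 1.71 in Cgas_KO and 2.07 to 2.14 in WT.

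Neighbours often differed in height. Within clusters the tallest region was a median of 1.63 times as high as the lowest, and more than 2 times as high in 225 of 626 clusters (35.9%), with a maximum of 14.5 times. The median fold between neighbours was 1.47 inside clusters, 1.52 at 20 to 50 kb and 1.54 over 200 kb. The heights of neighbours correlated weakly. Over the 902 neighbouring pairs inside clusters Spearman's rho was 0.090 and Pearson's r 0.061, a description over pairs that share libraries. Pairs under 1 kb apart gave rho = 0.28 and r = 0.16 (105 pairs). Pairs at 1 to 5 kb gave rho = 0.050 and r = 0.0088 (225 pairs). At 20 to 50 kb, outside clusters, rho was 0.067 and r 0.092 (700 pairs).

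The 5 tallest members show how unequal neighbours could be. The first was chr15:74950867-74963670, with heights of 30.9, 26.6 and 24.3 in Cgas_KO and 34.1, 31.6 and 32.3 in WT. Its partner 14540 bp away, chr15:74930115-74936326, had 2, 1.36 and 1.18 in Cgas_KO and 3.07, 2.69 and 2.86 in WT. In every library the taller member was more than 10 times as high as its partner. On height over list median, neither member overlapped between the genotypes. With the shift common to all regions taken out, as for the test below, the taller member did overlap. Its log2 difference was then 0.060 (limma adjusted p = 0.906). The partner still did not overlap, at a log2 difference of -0.63, but did not pass the test (limma adjusted p = 0.200).

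The next was chr14:125038127-125039677, at 20.6, 20.2 and 16.4 in Cgas_KO and 22.7, 24.6 and 23.2 in WT. At 1551 bp it was also the narrowest clustered region, and its neighbour 859 bp away averaged a height of 1.73. Then came chr9:124018586-124023669, at 20.9, 22.6 and 20.4 in Cgas_KO and 18.6, 16.5 and 16.9 in WT, the sole one of the 5 that was higher in all Cgas_KO libraries. The last were chr4:89041001-89050832, at 14.0, 12.1 and 12.2 in Cgas_KO and 24.0, 22 and 23.4 in WT, and chr11:83328795-83337313, at 13.5, 12.0 and 11.2 in Cgas_KO and 22.1, 25.5 and 23.4 in WT. Neither of these last regions overlapped between the genotypes, with or without the common shift, but neither passed the test below (limma adjusted p = 0.218 and 0.183). The same held for chr9:124018586-124023669 (limma adjusted p = 0.182). In the fit below that let the variance follow the mean height, these regions of chromosomes 4, 11 and 9 passed (limma adjusted p = 0.00932, 0.00359 and 0.00243). In that fit chr15:74950867-74963670 and chr14:125038127-125039677 did not pass (limma adjusted p = 0.806 and 0.954). With the common shift taken out, chr14:125038127-125039677 overlapped between the genotypes (limma adjusted p = 0.973).

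The 5 lowest members lay in 4 clusters and were broad, 11050 to 27865 bp, at mean heights of 0.769 to 0.841. On chromosome 7 there were 3, chr7:14951230-14973124, chr7:14882933-14893982 and chr7:14900912-14928776. The remaining ones were chr14:41183235-41207928 and chr4:61617583-61633976. The lowest, chr7:14951230-14973124, had heights of 0.714, 0.786 and 0.727 in Cgas_KO and 0.857, 0.692 and 0.857 in WT, which overlap.

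How closely the lists placed the highest point of a region was a measure the rule did not use directly. Region width, which enters the rule, limits how large it can be, so clustered and other regions are only described. The measure was the distance between the midpoints of the max-signal intervals of 2 libraries, with the median over the 15 pairs of libraries for each region. The median region had a distance of 227 bp when clustered and 211 bp otherwise. Within Cgas_KO the median was 384 bp in clustered regions and 309 bp in the others, and within WT it was 206 bp and 175 bp. Height moved with this distance. In 4 classes of 382 clustered regions from low to high, it was 1120, 325, 146 and 57.5 bp, and in other 6-list regions of the same heights it was 675, 255, 155 and 62 bp. In the highest class 81.2% of clustered regions had it within 200 bp, and in the lowest 11.5%. Clusters of 5 or more regions had 482 bp, and the 102 clustered regions of 20 kb or more had 5176 bp.

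The intervals between members held more peaks for their length than the sequence outside 6-list regions as a whole. They came to 7.80 Mb, of which peaks of regions found in fewer lists covered 7.13% ± 1.75 in Cgas_KO and 7.03% ± 0.515 in WT (SD, n = 3), a difference within the spread between libraries. Over the whole length outside 6-list regions, which includes these intervals, such peaks covered 3.08% ± 0.311 in Cgas_KO and 3.16% ± 0.0689 in WT (SD, n = 3). Per Mb there were 19.1 to 23.8 peaks in the intervals and 8.57 to 10.3 over the whole length, and the intervals were higher in 6 of 6 lists. The whole length also takes in sequence far from any 6-list region. Whether the intervals differed from the sequence around the other 6-list regions was not tested, so the higher density is not shown to be particular to clusters. Altogether 494 regions lay wholly inside these gaps, 279 of them called in 1 list and 36 in 5.

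Whether clustered regions differed between the genotypes was asked first on height over list median. It was lower in Cgas_KO as the mean of the 3 libraries in 1225 of the 1528 clustered regions (80.2%) and in 2739 of the 3282 others (83.5%). The median log2 difference, Cgas_KO minus WT, was -0.34 in clustered regions, -0.37 in the others and -0.36 over all 4810. The heights of the genotypes did not overlap, with Cgas_KO lower, in 535 clustered regions (35.0%), where 35.1% of all 6-list regions did so. With Cgas_KO higher there were 31 (2.03%), where the share over all was 1.85%. Both shares of clustered regions were thus near those of all 6-list regions.

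The difference between genotypes varied with height. In the 4 height classes of clustered regions from low to high, the median log2 difference was -0.037, -0.24, -0.42 and -0.65, and in other 6-list regions of the same heights it was -0.100, -0.28, -0.43 and -0.65. By cluster size it was a median of -0.38 for members of pairs, -0.31 for clusters of 3, -0.35 for clusters of 4 and -0.23 for clusters of 5 or more. The median heights of these members were 1.90, 1.78, 1.94 and 1.59, so the members of the largest clusters were also the lowest. The 43 clustered regions of the chromosome 4 stretch had a median difference of -0.039, near that of the lowest height class. Without that stretch, 103 members of clusters of 5 or more remained, with a median difference of -0.30 and a median height of 1.67.

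**Figure D4:**
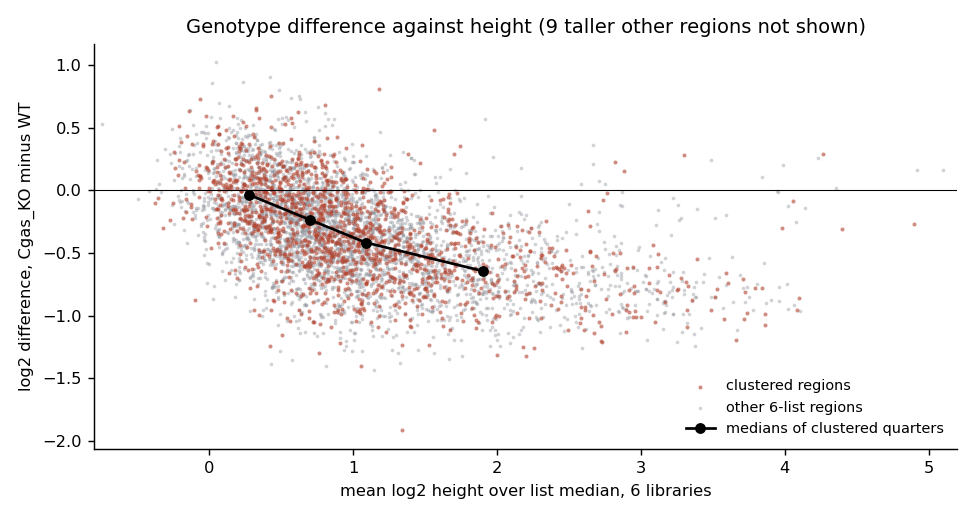
Log2 difference in height over list median, Cgas_KO minus WT (y axis), against the mean log2 height of the 6 libraries (x axis), for clustered regions (red) and other 6-list regions (grey). The black points are the medians of 4 height classes of 382 clustered regions, which run from -0.037 in the lowest to -0.65 in the highest.

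For the test, log2 height was centred in each library on the median of all 4810 regions. That takes out a shift common to all of them, but not the change of the difference with height. The result is called relative height. With limma and Benjamini-Hochberg adjustment over all regions, 1 region passed an adjusted p of 0.05, 0.0208% of those tested, and it was a clustered one. At an unadjusted p under 0.05 there were 279 clustered regions (18.3%), where the background was 17.9%. Of these, 158 were lower in Cgas_KO (10.3%, background 10.5%) and 121 higher (7.92%, background 7.46%). The direction went with height. In the 4 height classes from low to high, 4, 20, 34 and 100 were lower in Cgas_KO and 75, 30, 8 and 8 higher. Relative heights did not overlap between the genotypes in 217 clustered regions with Cgas_KO lower (14.2%, background 14.4%) and in 168 with Cgas_KO higher (11.0%, background 9.65%). The shares of clustered regions were thus near the background in both directions.

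How many regions were called depended on the model. Where limma let the variance follow the mean height, 231 regions passed (4.8% of all), of which 75 were clustered (59 lower in Cgas_KO, where 3.68% of all regions were, and 16 higher, where 1.12% were). That was 4.91% of clustered and 4.75% of the other 6-list regions. These 75 had a median height of 6.12 and lay in 72 clusters, and 3 clusters held more than 1 of them. With 4.91% of clustered regions called, nothing about clusters is read from that count. Without centring, limma called 859 regions (17.9%), of which 268 were clustered, 17.5% of clustered and 18.0% of the other regions. On normal scores of ranks it called 0 (0% of all), with 447 at an unadjusted p under 0.05. In each of these fits the share called differed little between clustered and other regions.

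The called region was chr1:171352129-171397767, 45639 bp wide, built from 14 peaks and the second member of a pair. Its highest point lay at a median distance of 1355 bp between libraries, against 227 bp in the median clustered region. The heights thus need not all come from 1 site. They were 1, 1.43 and 1.55 in Cgas_KO and 4.86, 4.69 and 5.21 in WT. Relative height was lower by 1.59 on the log2 scale in Cgas_KO (log2 difference -1.59, SE 0.24, limma adjusted p = 0.0251), in 3 of 3 libraries. Its partner 16492 bp away, chr1:171326738-171335636, stood at 2.50, 2.21 and 3 in Cgas_KO and 3.07, 2.46 and 2.21 in WT. The heights of the partner overlapped between the genotypes (relative log2 difference 0.33, SE 0.23, limma adjusted p = 0.468). With any 1 of the 6 libraries left out, no region passed, and the lowest limma adjusted p was 0.0649 to 0.166. On normal scores of ranks chr1:171352129-171397767 did not pass either (limma adjusted p = 0.312). It did pass where the variance followed the mean height (limma adjusted p = 0.00012), without centring (0.00173) and with total signal (0.000837). Among regions with a mean height of at least 2 it passed narrowly (limma adjusted p = 0.0486).

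Of the next clustered regions with lower relative height in Cgas_KO, none passed, all having a limma adjusted p of 0.130. They were chr5:136168930-136175022, at 1, 1.07 and 1.18 in Cgas_KO and 3.07, 2.54 and 2.43 in WT, and chr9:37139505-37146105, at 1.93, 1.07 and 1 in Cgas_KO and 3.07, 3.31 and 3.79 in WT. The others were chr15:25800052-25814772, at 2.29, 3.43 and 2.09 in Cgas_KO and 6.64, 5.54 and 6.86 in WT, and chr14:53554380-53559030, at 1.86, 1.57 and 1.55 in Cgas_KO and 3.71, 4.46 and 3.57 in WT. Heights of the genotypes did not overlap in any of these. Their relative log2 differences were -0.91 to -1.08. Where the variance followed the mean height, all 4 passed, with limma adjusted p of 0.00566 to 0.0266.

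The 5 clustered regions with the smallest p and higher relative height in Cgas_KO likewise had a limma adjusted p of 0.130. The first was chr15:73018539-73030589, at 1.29, 1.14 and 1.27 in Cgas_KO and 0.643, 0.692 and 0.929 in WT. The tallest of the 5, chr5:125456684-125467470, stood at 4.21, 2.50 and 2.55 in Cgas_KO and 1.5, 1.46 and 2.29 in WT. The others were chr3:96175151-96180230, chr6:127122049-127137542 and chr18:36049275-36055233, at mean heights of 1.25, 1.35 and 0.986. Their relative log2 differences were 0.92 to 1.14, and their heights did not overlap between the genotypes. All 5 passed where the variance followed the mean height (limma adjusted p of 0.00893 to 0.0266).

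**Figure D5:**
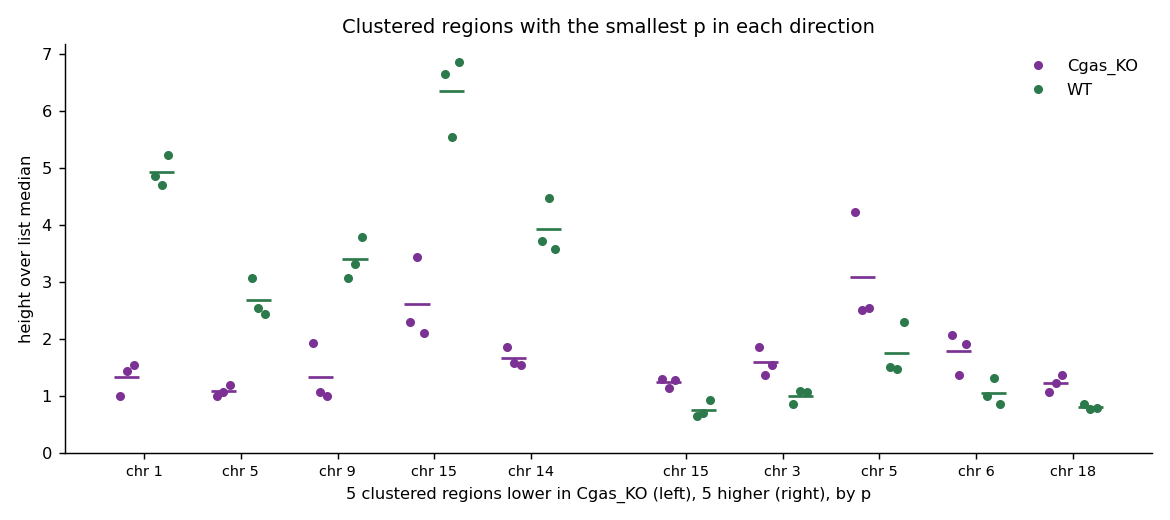
Height over list median (y axis) in Cgas_KO libraries (purple, left of each pair) and WT libraries (green, right) for the 5 clustered regions with the smallest p in each direction (x axis, by chromosome), with points for libraries and bars for means of 3. The chromosome 1 region at the far left, at 1 to 1.55 in Cgas_KO and 4.69 to 5.21 in WT, was the one that passed.

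Members of a cluster often lay on opposite sides of the common shift. In the 458 pairs, both relative heights were lower in Cgas_KO in 148 clusters, both were higher in 102, and the members lay on opposite sides in 208 (45.4%). Over the 902 neighbouring pairs inside clusters, 55.1% had differences on the same side, and 52.4% of the 700 pairs at 20 to 50 kb did. The relative log2 differences of neighbours correlated with rho = 0.094 and r = 0.082 inside clusters, with rho = 0.29 and r = 0.26 in the 105 pairs under 1 kb apart, and with rho = 0.059 and r = 0.063 at 20 to 50 kb. These describe regions measured in the same 6 libraries, and no p is given. An unadjusted p under 0.05 was reached by 2 or more members in 34 clusters, by 1 member in 209 and by none in 383. These counts stand beside a share of 17.9% at that p over all 6-list regions, and nothing about clusters is read from them.

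Among the 168 clusters of 3 or more regions, the lowest mean relative difference was that of chr2:93015529-93049805, at -0.48. Its 3 members averaged heights of 3.17, 2.58 and 2.37 in Cgas_KO and 4.63, 5.37 and 4.21 in WT. The middle member, chr2:93025454-93031589, was 72 bp from its neighbour and stood at 10.9, 8.93 and 8.09 in Cgas_KO and 17.6, 22.3 and 16.9 in WT (limma adjusted p = 0.175, or 0.00517 where the variance followed the mean height). The next were chr15:85465755-85521556, with all 4 members lower in Cgas_KO and a mean of -0.47, and chr11:98524098-98565359, with 3 of 3 lower and a mean of -0.44. In all 3 clusters the mean heights of the genotypes did not overlap.

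The highest mean relative difference was 0.56, at chr11:62439605-62501122. It rested on 2 of the 3 members, at 0.91 and 0.86, while the middle one, chr11:62460800-62471176, was at -0.099. Mean heights there were 1.82, 1.64 and 1.65 in Cgas_KO and 1.16, 1.85 and 1.44 in WT, and overlapped, with WT replicate 2 the highest of the 6. The next was chr7:22460115-22556867, at 0.54, whose 3 members filled 94.4% of the span and averaged heights of 1.21, 1.12 and 1.38 in Cgas_KO and 1.05, 1.13 and 1.03 in WT. In chr2:31941042-31977150, at 0.47, mean heights were 1.09, 1.42 and 0.935 in Cgas_KO and 1.06, 0.872 and 1.17 in WT. Height over list median thus overlapped between the genotypes in all 3, and these clusters stand out after the common shift is taken out. Their mean relative heights did not overlap, as was so with Cgas_KO higher in 9.65% of all single 6-list regions. They were low clusters, at 1.08 to 1.57 times the list median.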

How the data were processed

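The deposited files are 1 peak list per library. The submitters' processing notes name Bowtie2 as well as SEACR 1.3, a peak caller for CUT&RUN. Not given in the sources used here are the scaling of the signal, the threshold and whether a control was used. The values are signal as deposited by the authors, the total (column 4) and the maximum (column 5) of each peak. The notes list mm10 and mm39, and the sequence names in the lists belong to mm39. No counting interval is given because depth is unknown.

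Peaks on chromosomes 1 to 19 were merged at 1 bp overlap. In each list max signal came in equal steps: up to 200 steps, 100% of peaks lay within 0.01 step of a whole number. Log2 height over list median, centred per library on the 4810 regions, was tested with limma 3.58.1 (R 4.3.3), Cgas_KO against WT, with Benjamini-Hochberg adjustment over all regions at 0.05. Merging and the limma step were checked on simulated data. The remaining work was done in Python 3.11.15 with pandas 2.3.3, numpy 2.4.6, matplotlib 3.10.9 and scipy 1.17.1.

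The members and tests were chosen with earlier results of these data known. Text names the 8 clusters with the most regions, the 5 tallest and 5 lowest members, the 5 smallest p in each direction and the 3 clusters of 3 or more regions at either end of the mean relative difference. The chromosome 4 stretch was chosen after its values were seen. Alternatives were other gaps (10000 and 50000 bp), distances between midpoints, merging within 500 bp, 5 lists, 50% coverage, the top 50% of each list, total signal, mean over peaks, leaving out regions over 100 times the list median, ranks, no centring, a variance trend, a height filter, chromosomes X and Y, the replicate number as a block, and each library left out in turn.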

Additional observations from a re-analysis of the deposited data

Results flagged for a closer look

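Chromosome X entered no comparison and is listed because it holds the same kind of signal. It had 85 regions in all 6 lists, of which 17 (20%) were clustered, in 7 clusters. Chromosome Y had 1 region in all 6 lists and it had no neighbour within the gap.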

How the results depend on the processing

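The number of clustered regions, 1528 in 626 clusters, follows the rule. It was 944 at a gap of 10000 bp, 2480 at 50000 bp, 911 in 405 clusters by midpoints, 3139 in 1228 with 5 of 6 lists, 719 in 309 in the top 50% of each list, and 36 in 18 at 50% coverage. Without 1 library it was 1636 to 1874, in 665 to 763 clusters, since 5 lists then suffice. The width difference of peaks, 211 bp as the mean of 6 libraries, was 298 bp at 10000 bp and 1540 bp at 50% coverage. The log2 height difference, -0.0082, was 0.025 at 50000 bp, -0.13 at 50% coverage and 0.18 with total signal. The log2 genotype change in clustered minus other regions, 0.028, was -0.028 at 50000 bp, 0.12 at 50% coverage and 0.012 to 0.044 without 1 library, so its sign is not settled. Without the chromosome 4 stretch, chosen after seeing the data, these 3 values were 164 bp, 0.0079 and 0.017. Limma called 1 region in the main setting, 0 on ranks, 859 without centring, 2 with total signal, 231 with a variance trend, and 0 with any 1 library left out, where 650 to 787 had an unadjusted p under 0.05 against 862 with all. Leaving out a library leaves fewer samples; otherwise the cause was not tested.

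In the fit with a replicate block, limma called 0 regions (805 at an unadjusted p under 0.05), chr1:171352129-171397767 having an adjusted p of 0.0844, and the genotype change was 0.028. Same-numbered libraries did not deviate together (r of -0.017 to -0.019), so the numbers only name samples. For the 10 regions named by p, 1 value reversed: the relative difference of chr5:136168930-136175022 was 0.0020 with total signal. Unknown depth, 3 libraries per group and the step size limit how small a difference can be seen.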
